A study of Gallus gallus with 4 samples.

Results

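The genes described here lay inside H3K9me3 domains of cultured primordial germ cells of the chicken (cPGCs) and outside those of embryonic stem cells (ESCs), which come from the early embryo. They were selected on the percentage of each locus that H3K9me3 domains covered, at least 75% in cPGCs and at most 10% in ESCs. A locus is the gene plus the 500 bp ahead of its transcription start, as annotated by Ensembl on galGal5. The 1999 loci used are the first of the study's gene annotation, so many genes are absent. Neighbours named below are the nearest among these loci, and absent genes may lie closer. Of the 1999, 37 met these limits, which is 1.85% of the loci, and 36 of them remained, since *MYOCD* was left out by the rule. The opposite limits, at least 75% in ESCs and at most 10% in cPGCs, were met by 40 loci, or 2.0%.

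In the study, ChIP-seq of H3K9me3, histone H3 with 3 methyl groups on lysine 9, was performed on cPGCs and on ESCs. A library of input chromatin, which was not immunoprecipitated, was sequenced for each cell type. Neither cell type carried a treatment or a genetic change according to the labels. With 1 immunoprecipitated library and 1 input library per cell type, no replicate error exists, and the differences below carry no test. The values are positions of called domains, 23130 in cPGCs and 24491 in ESCs, with no count or signal, so the depth behind each list is unknown and an uncovered locus is one where no domain was called.

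H3K9me3 is the mark of constitutive heterochromatin, laid down by SETDB1 and the SUV39H enzymes and bound by HP1 proteins. It is best known at repeated elements, and in many cell types it also lies over silent genes of other lineages. Broad enrichment is called as domains, in which neighbouring enriched windows are joined, so the edges here fall on a grid of 300 bp.

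Since coverage chose the genes, coverage is given as a description. In cPGCs, 22 of the 36 loci lay wholly inside domains, 1 was covered between 90% and 100%, 7 between 80% and 90%, and 6 between 75% and 80%. In ESCs, 33 of the 36 had no domain base at all. The other 3 included *SPIK7* (9.96%) and *JAM3* (6.27%). Just inside the cPGC limit were *MTCH1* (75.2%), *CYP3A5* (75.6%) and *MYL10* (77.6%). Just under it, with no ESC coverage, were *ACSM3* (72.0%), *SPP2* (71.9%) and *SYT12* (71.6%). Just over the ESC limit were a gene annotated as P2Y purinoceptor 10-like (100% in cPGCs and 10.05% in ESCs), *NR5A1* (81.6% and 12.5%) and *ARHGEF4* (85.7% and 13.5%).

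**Figure D1:**
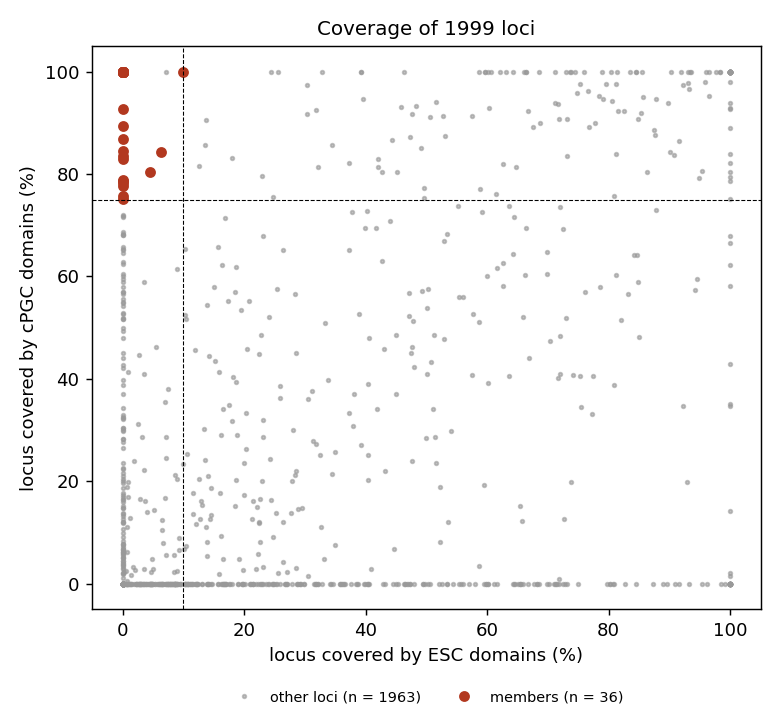
Percentage of each of 1999 loci covered by H3K9me3 domains of cPGCs (vertical axis) and of ESCs (horizontal axis), 1 point per locus, with the limits of 75% and 10% as dashed lines. The 36 selected loci fill the upper left corner, 33 of them at 0% in ESCs.

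The loci were short, with a median of 4233 bp and quartiles of 3252 and 9850 bp, against a median of 11614 bp over all 1999 loci and 7419 bp over the 95 loci covered at 75% or more in both cell types. The 40 loci that met the opposite limits had nearly the same median, 4220 bp, so short loci were found under the limits in either direction. None lay on chromosomes 1 to 5, which held 86 of the loci used. Chromosomes 6 to 9 held 5 of the genes and 276 of the loci, and the smaller chromosomes from 10 upward held 31 of the genes and 1637 of the loci. Chromosome 26 had 6 of the genes among 150 loci, chromosome 21 had 5 among 108 and chromosome 13 had 4 among 109. Over all loci, 1.85% met the limits. Chromosome 28 had 0 of the genes among 111 loci and chromosome 27 had 0 among 92. The loci used are only part of the annotation, and the spread over chromosomes was not tested.

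For each gene, the cPGC domain holding most of its locus is called its main domain. The 36 main domains were all distinct. Their median width was 15300 bp (range 3300 to 100200 bp), against 9000 bp over all cPGC domains, 10650 bp for all loci with a cPGC domain and 21300 bp for the loci covered in both cell types. A domain that covers most of a locus has to be wide enough to do so. With domains 3000 bp or less apart joined, the limits gave 41 genes, with a median of 25200 bp. Of the 36, 11 were under 10 kb, 13 were between 10 and 20 kb and 12 were at least 20 kb. The main domain reached past both ends of the locus for 22 genes, ended inside the locus on 1 side for 10, and lay within the locus for 4. For ESC overlap, only the main domain was counted, also at the 4 genes covered by 2 or more cPGC domains. No ESC domain overlapped the main domain of 23 genes (63.9%), whereas over all cPGC domains 43.0% had no ESC overlap. The selection favours such a difference, since the part of each main domain over the gene had to be nearly free of ESC domains. Whether it accounts for the whole difference was not tested. With domains 3000 bp or less apart joined, the share without ESC overlap was 43.9% of the 41 genes. No share over all joined domains is given.

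**Figure D2:**
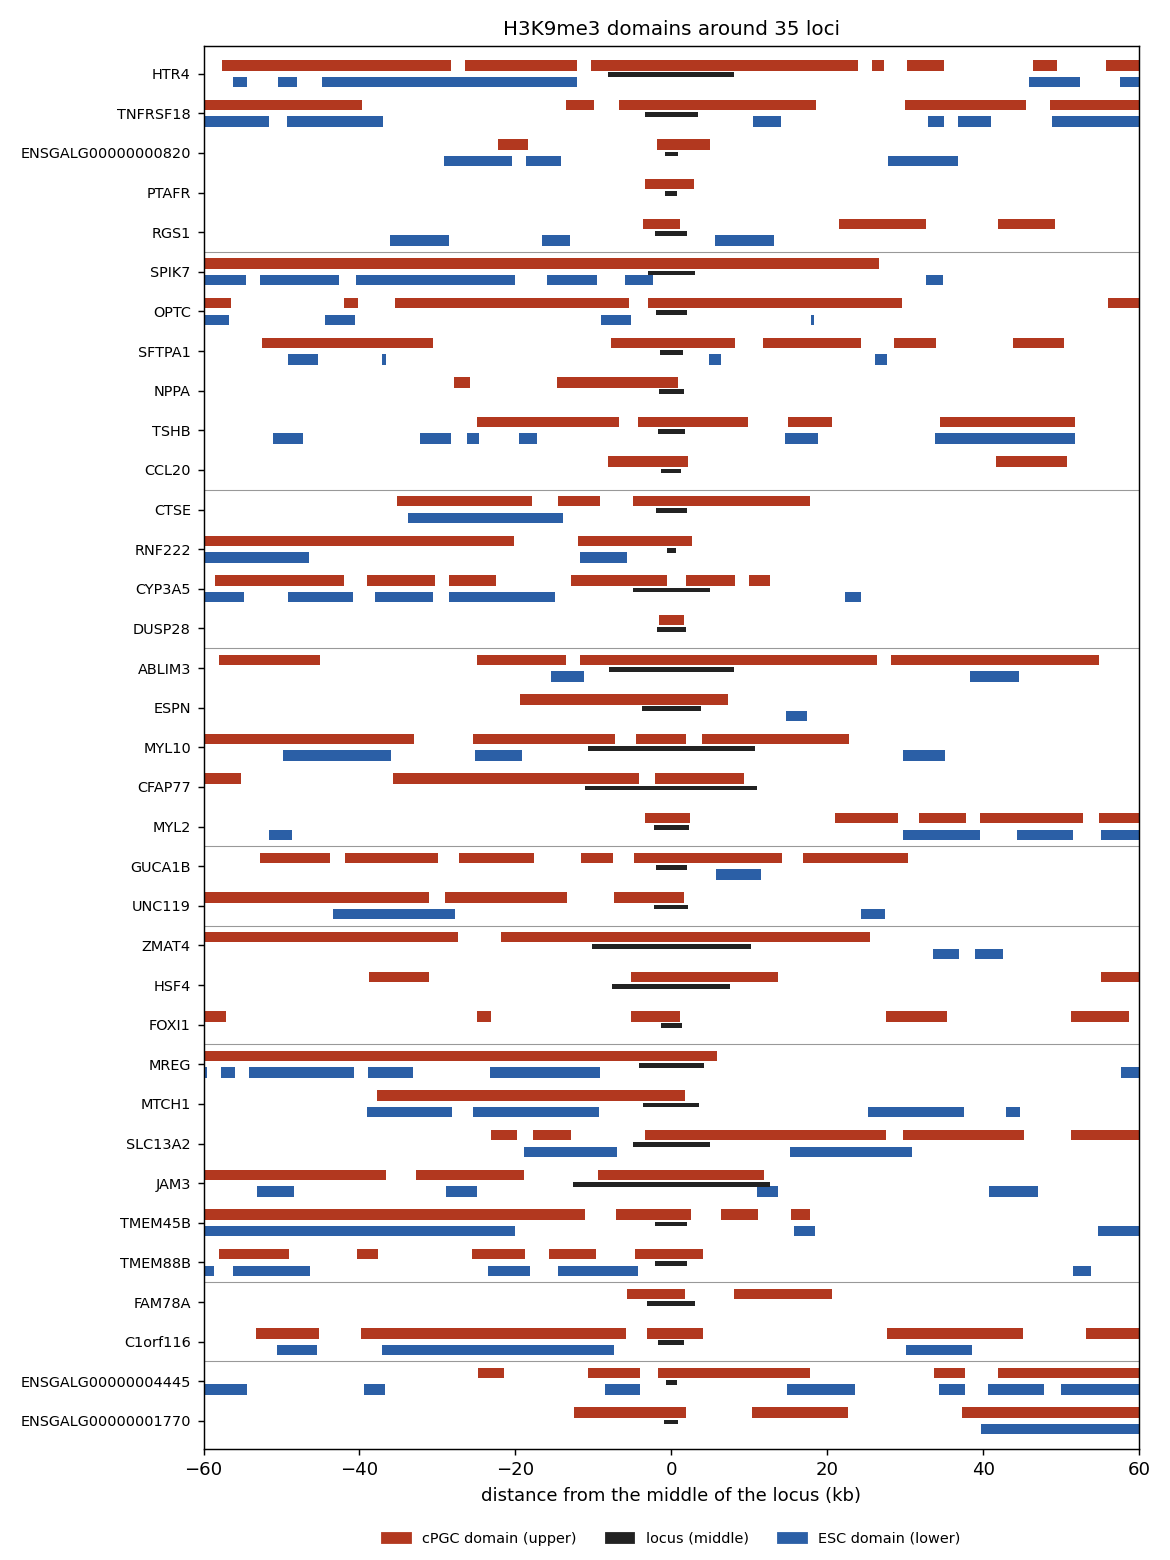
H3K9me3 domains within 60 kb of the middle of 35 of the 36 loci, with cPGC domains above, the locus as a thin black bar and ESC domains below, grouped by role in the order of the text. The domains of *DUSP28* and *PTAFR* stand alone on the map, in contrast with those of *SPIK7* and *MREG*, which run beyond the map.

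Receptors and a regulator of receptor signalling made up 5 of the genes described, and 4 of their main domains had no ESC overlap. Over the 36 genes this share was 63.9%, and over all cPGC domains 43.0%. With so few genes per group, such counts here and below are no result about a role. Roles named here and below are known mainly from mammals. *HTR4*, a serotonin receptor that raises cyclic AMP, lies on chromosome 13 (8257578 to 8273761) and was wholly inside a cPGC domain of 34200 bp. An ESC domain of 32700 bp and another cPGC domain, of 14400 bp, both ended 3977 bp before the locus. The gene thus stood beside a stretch marked in both cell types and outside the wide ESC domain. A second serotonin receptor, *HTR1D*, listed as ENSGALG00000000820 on chromosome 23 (1670572 to 1672207), had a main domain of 6900 bp, and the nearest ESC domain was 13371 bp away. *PTAFR*, the receptor for platelet-activating factor, lies on the same chromosome (1546991 to 1548557). Its domain of 6300 bp reached 2590 bp and 2143 bp past the ends of the locus. The loci on either side, *EYA3* and *DNAJC8*, had no domain in either cell type, and the nearest ESC domain was 59590 bp away.

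*TNFRSF18*, a costimulatory receptor of T cells also called GITR, lies on chromosome 21 (2553862 to 2560669) inside a cPGC domain of 25200 bp. The next locus, ENSGALG00000001894, lay 2531 bp away under the same domain and was covered 100% in cPGCs and 39.3% in ESCs. An ESC domain of 3600 bp lay within the main domain 7031 bp from *TNFRSF18*. *RGS1*, which speeds the shut-off of G proteins in lymphocytes, lies on chromosome 8 (3620502 to 3624559). It was covered at 78.8% in cPGCs by a domain of 4800 bp that stopped 859 bp short of one end. An ESC domain of 7500 bp began 3641 bp beyond that end.

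Secreted proteins numbered 6, of which 5 were wholly covered in cPGCs. *NPPA*, the precursor of atrial natriuretic peptide, was the exception at 78.1% (chromosome 21, 5576344 to 5579487). Its domain of 15600 bp ran 13143 bp past one end of the locus and stopped 687 bp inside the other, and the nearest ESC domain was 60813 bp away. *TSHB*, the beta subunit of thyroid-stimulating hormone, lies on chromosome 26 (3979389 to 3982784) under a domain of 14100 bp. Its neighbours on both sides were partly covered in both cell types. *SYCP1*, a protein of the meiotic synaptonemal complex, had 79.6% in cPGCs and 23% in ESCs, and *TSPAN2* 48.6% in cPGCs and 22.9% in ESCs.

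*CCL20*, the chemokine that binds CCR6, lies on chromosome 9 (9539283 to 9541879) and had the most distant ESC domain of the 36, at 113882 bp. Its cPGC domain of 10200 bp extended 6782 bp on one side and 821 bp on the other, and the neighbouring *DAW1* locus, 8614 bp away, was uncovered in both cell types. *SFTPA1*, a lung surfactant collectin, lies on chromosome 6 (4475381 to 4478345) near the centre of a domain of 15900 bp. An ESC domain of 1500 bp lay within that domain, 3355 bp from the gene. Another collectin, *MBL2*, lay 24736 bp away with 62.2% coverage in cPGCs and 16.3% in ESCs. On the other side *MAT1A*, a methionine adenosyltransferase, had 59.0% and 3.48%.

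*OPTC* encodes opticin, a small leucine-rich proteoglycan of the eye (chromosome 26, 5176354 to 5180319). It sat near one edge of a domain of 32700 bp that ran 27681 bp past the other end of the gene and held a single ESC domain of 300 bp. *SPIK7*, a Kazal-type protease inhibitor named *SPINK7* in RefSeq, had the widest main domain, 100200 bp (chromosome 13, locus 10573807 to 10579769). Its locus took up 5.95% of that domain. Inside it lay 6 ESC domains, which covered 50% of it. The ESC domain closest to the gene entered the locus by 594 bp, giving the ESC coverage just under the limit.

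Enzymes numbered 4. *DUSP28*, a dual-specificity phosphatase, had the narrowest main domain, 3300 bp, which began 222 bp inside one end of its locus and ended 170 bp inside the other (chromosome 9, 2677579 to 2681270). Neither cell type had any domain in the 10 kb on either side, and the nearest ESC domain was 97630 bp away. *RNF222*, a RING finger protein, has the shortest locus (chromosome 18, 1716059 to 1717190). An ESC domain of 6000 bp took up 40.8% of its main domain, at 5158 bp from the gene. *CTSE*, the aspartic protease cathepsin E, lies on chromosome 26 (2355280 to 2359220) under a domain of 22800 bp. The uncovered *RAB7B* locus was 2989 bp away, next to the nearer edge of that domain.

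*CYP3A5*, a drug- and steroid-metabolising cytochrome P450, was covered at 75.6% by 2 cPGC domains (chromosome 14, 3928053 to 3937893). These held 44.2% and 31.4% of the locus. Its paralog *CYP3A4*, 23520 bp away, had 73.7% of its locus in cPGC domains and 63.6% in ESC domains, so the pair had like coverage in cPGCs and unlike coverage in ESCs. *FOXK1* on the other side was uncovered in both.

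Genes of muscle, the cytoskeleton and cilia numbered 5. Of their main domains 4 had no ESC overlap, compared with 63.9% over the 36 genes. *MYL2*, the regulatory light chain of cardiac and slow-muscle myosin, lies on chromosome 15 (6081767 to 6086276). A domain of 5700 bp fitted it closely, with 1066 bp and 124 bp beyond its ends, and the nearest ESC domain was 27424 bp away. *MYL10*, another regulatory light chain, lies on chromosome 19 (3725135 to 3746593) and was covered at 77.6% by 3 domains. Both flanks of 10 kb were wholly inside cPGC domains. Its main domain, without ESC overlap, held 31.7% of the locus. Another of the 3, of 18300 bp, contained an ESC domain of 6000 bp, 8434 bp from the gene. The actin-binding LIM protein *ABLIM3* (chromosome 13, 8543270 to 8559270) had a main domain of 38100 bp, of which 1.57% was also in an ESC domain.

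*ESPN* encodes espin, which bundles actin in the stereocilia of hair cells (chromosome 21, 588403 to 595922). Its domain of 26700 bp had no ESC overlap, while the neighbouring *ACOT7*, 7598 bp away, had 0% in cPGCs and 36.5% in ESCs. *CFAP77*, an axonemal protein, lies on chromosome 17 (7033550 to 7055559). Of its locus, 51.8% lay in a domain of 11400 bp wholly within the gene and 31.1% in a domain of 31500 bp that entered from one side. The nearest ESC domain was 83749 bp away.

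Neighbours also differed at the 2 photoreceptor genes. *GUCA1B*, an activator of the retinal guanylate cyclase, lies on chromosome 26 (3177004 to 3181038) and shared its main domain of 18900 bp with its paralog *GUCA1A*, 3425 bp away. *GUCA1B* was covered 100% in cPGCs and 0% in ESCs, and *GUCA1A* 100% in cPGCs and 93.1% in ESCs. *UNC119*, a chaperone of lipid-modified proteins that is abundant in photoreceptors, was covered at 86.7% in cPGCs (chromosome 19, 5722924 to 5727277). Its domain of 9000 bp ended 577 bp inside the locus on the side of *PIGS*, which lay 5094 bp away with no domain in either cell type.

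Genes for nuclear proteins numbered 3, and their main domains were free of ESC domains, compared with 63.9% over the 36 genes. *HSF4*, a heat shock transcription factor needed in the lens, lies on chromosome 11 (2520937 to 2536119) and was covered at 84.4%. The domain of 18900 bp began 2364 bp inside the gene, on the side where *FBXL8* lay 100 bp away and was uncovered in both cell types. At its other end it reached *DNAAF1*, a dynein assembly factor, with 13.7% in cPGCs and 0% in ESCs. *FOXI1*, a forkhead factor of ionocytes and the inner ear, had a domain of 6300 bp (chromosome 13, 3949133 to 3951794) and its nearest ESC domain at 111406 bp. *ZMAT4*, a zinc finger protein, lies on chromosome 22 (2545785 to 2566226). Its main domain of 47400 bp was the widest without ESC overlap, while *SFRP1*, a secreted Wnt inhibitor 27576 bp away, had 0% in cPGCs and 31.6% in ESCs.

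Membrane and transport proteins numbered 6. Of their main domains 1, that of *TMEM45B*, had no ESC overlap, compared with 63.9% over the 36 genes. *MREG*, melanoregulin, a protein of melanosome transport, lies on chromosome 7 (4556265 to 4564659), near the edge of a domain of 83100 bp. That domain also held 5 ESC domains, covering 63.5% of it, the nearest 4964 bp from the gene. *MTCH1*, a protein of the mitochondrial outer membrane, lies on chromosome 26 (1661084 to 1668286) at the edge of a domain of 39600 bp with 65.2% in ESC domains. The *SNRPE* locus, which overlaps that of *MTCH1* and encodes a spliceosome subunit, had no coverage in either cell type. At both genes, the domain was largely shared by the cell types and the gene lay under a stretch found in cPGCs at its end.

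*SLC13A2*, a sodium-dependent dicarboxylate transporter, lies on chromosome 19 (5661478 to 5671354) and was covered at 83.6% by a domain of 30900 bp. *SLC46A1*, the proton-coupled folate transporter 834 bp away, had the opposite pattern, with 0% in cPGCs and 71.5% in ESCs. *JAM3*, a junctional adhesion molecule, lies on chromosome 24 (2490633 to 2515882). A domain of 21300 bp lay wholly within the gene, and an ESC domain of 2700 bp straddled one end of the locus. *TMEM45B* on the same chromosome (1420186 to 1424248) had a domain of 9600 bp. Its name is that of the galGal5 table, since RefSeq places a gene of this symbol on another chromosome. *TMEM88B* on chromosome 21 (2197052 to 2201163) had a domain of 8700 bp with 3.45% in an ESC domain.

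The remaining 4 loci have no role stated here. *FAM78A* (chromosome 17, 6604165 to 6610307) was covered at 78.7% by a domain of 7500 bp and *C1orf116* (chromosome 26, 2605228 to 2608515) wholly by one of 7200 bp, neither overlapped by an ESC domain. ENSGALG00000001770 (chromosome 21, 2436175 to 2437943) had a domain of 14400 bp, and the neighbouring *SCNN1D*, an epithelial sodium channel subunit 7736 bp away, had 65.2% in cPGCs and 0% in ESCs. ENSGALG00000004445 (chromosome 20, 5726466 to 5727814) had a domain of 19500 bp with 15.4% in an ESC domain.

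**Figure D3:**
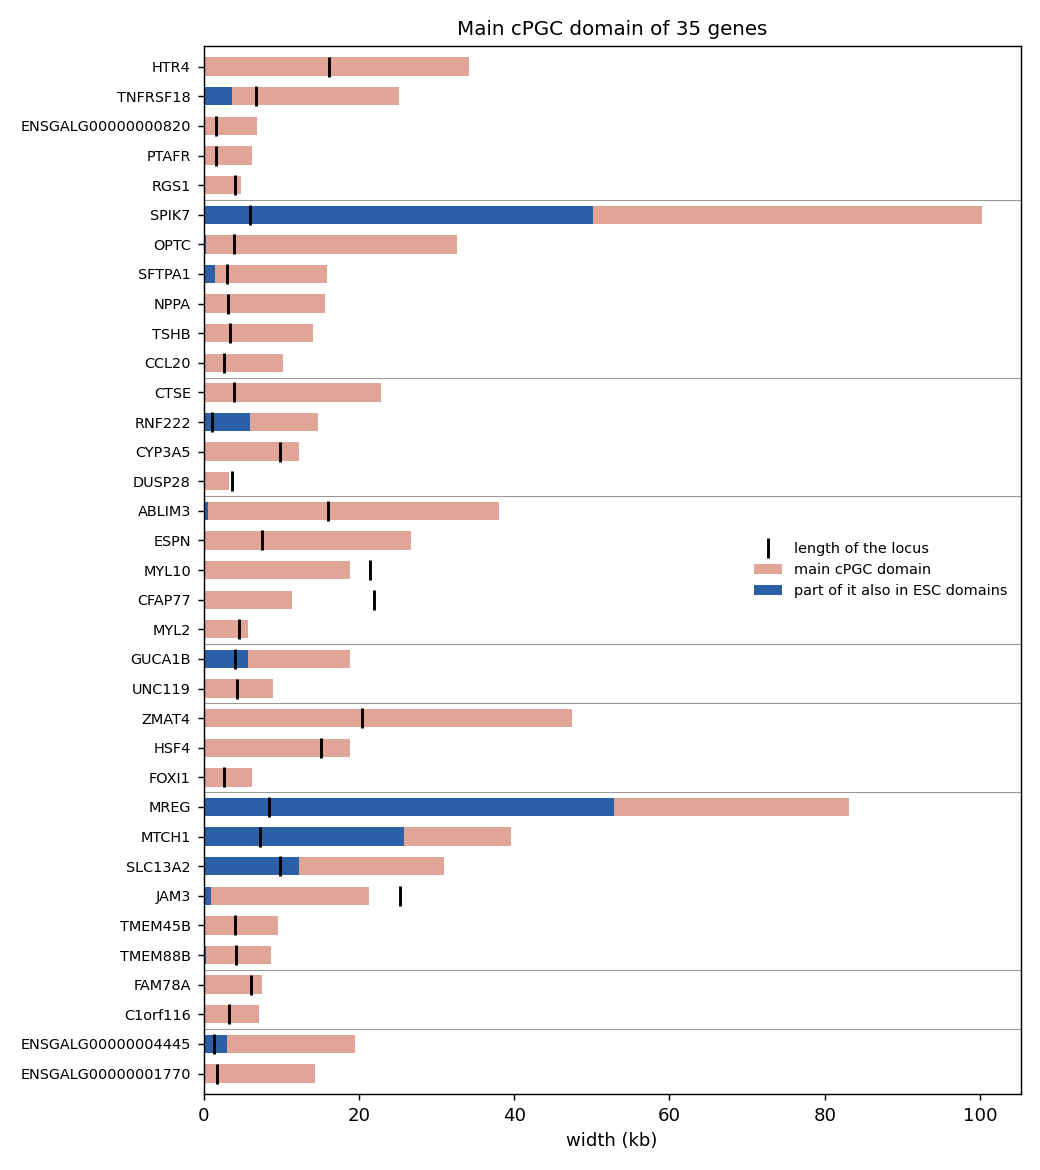
Width of the main cPGC domain of 35 of the 36 genes in kb (bars), the part of it that also lies in ESC domains (blue, drawn from the left whatever its position) and the length of the locus (black marks), grouped as in the text. *SPIK7*, *MREG* and *MTCH1* have at least 50% of the domain in ESC domains, and *DUSP28* and *ZMAT4*, with domains of 3300 and 47400 bp, have none.

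Where an ESC domain overlapped the main domain, it was a single one for 10 of the 13 genes. The shared part was under 5% of the domain for 4 genes and at least 30% for 6, namely *MTCH1*, *MREG*, *SPIK7*, *RNF222*, *SLC13A2* and *GUCA1B*. The distance from the locus to the nearest ESC domain had a median of 9243 bp. It was over 50 kb for 8 genes and between 0 and 5 kb for 10. With domains under 5000 bp left out, the limits gave 46 genes, with a median of 25287 bp.

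Coverage outside the loci was highest next to them in cPGCs and varied further out. In the first 1 kb beyond the ends, 77.1% of the bases lay in cPGC domains and 2.78% in ESC domains, compared with 12.5% and 15.0% around all loci. At 9 to 10 kb the values were 49.0% in cPGCs and 15.9% in ESCs, against 18.6% and 17.4% around all loci. In cPGCs it was lowest at 35 to 36 kb, at 26.4%, and higher again at 48 to 49 kb, at 37.4%. At 49 to 50 kb the values were 34.8% in cPGCs and 17.7% in ESCs, against 22.3% and 19.3% around all loci. Over the 10 kb flanks together, the median gene had 57.4% in cPGC domains and 0% in ESC domains. For the 95 loci covered in both cell types the medians were 61.5% and 50.3%. The flanks adjoin the stretch that chose the genes and so are not independent of it.

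**Figure D4:**
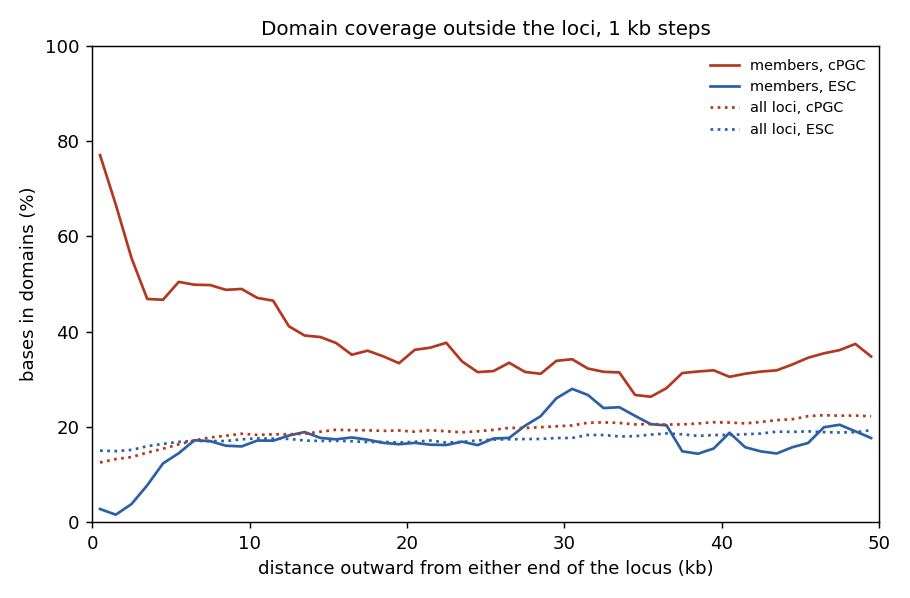
Percentage of bases in H3K9me3 domains against the distance outward from either end of the locus, in steps of 1 kb, for the 36 genes (solid lines) and all 1999 loci (dotted lines), with cPGCs in red and ESCs in blue. Next to the genes cPGC coverage is 77.1% and ESC coverage 2.78%, and ESC coverage reaches the level around all loci within 10 kb.

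The nearest of the loci used on either side, or overlapping, gave 47 loci within 50 kb of 32 of the genes. Genes absent from the loci used may lie closer, as *RGS13* and *RGS21* do in the RefSeq order around *RGS1*. None of these was itself among the 36. No domain of cPGCs touched 30 of them (63.8%), compared with 71.1% of all loci, and 4 (8.51%) were covered at 75% or more in cPGCs, compared with 10% of all loci. Coverage was 0% in both cell types for 23 (48.9%), compared with 55.1% of all loci. It was higher in cPGCs for 15 and higher in ESCs for 9. No share over all loci was computed for this split, so it does not show whether these neighbours lean to either cell type. These loci lie near the stretches that chose the genes and are not independent of that choice. A main domain overlapped 4 of them, *GUCA1A* and ENSGALG00000001894 wholly, and *TSPAN2* and *DNAAF1* only in part. The closest pair among the 36, *SLC13A2* and *UNC119*, stood 51569 bp apart under separate domains.

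Relatives of these genes are given by the start of their symbols. Each family was taken because it holds at least 1 of the 36 genes. Since 1.85% of all loci met the limits, a relative that did not meet them is no result about the family. Of the serotonin receptors by symbol, *HTR6* had 0% in cPGCs and 100% in ESCs, the reverse of *HTR4*. Among 5 loci whose symbols begin with MYL, *MYL2* and *MYL10* met the limits, while *MYL4* had 0% in cPGCs and 39.9% in ESCs and *MYL1* 0% and 26.9%. *RGS4* had 92.3% and 66.7%, and *RGS14* no coverage. *CCL1* had 100% in both cell types, *TNFRSF10B* 34.6% in cPGCs and 100% in ESCs, and *HSF5* 81.9% and 62.6%. *DUSP26*, *FOXK1* and *FOXK2* had no domain in either cell type. Of 22 *TMEM* loci, 2 met the limits and 12 were uncovered in both, and of 9 *RNF* loci 1 met them and 4 were uncovered, whereas 55.1% of all loci were uncovered in both. Of 5 *CYP* loci 1 met the limits and 1, *CYP1A1*, met the opposite limits, with 0% in cPGCs and 100% in ESCs. The limits were also met by 1 of 4 *CFAP* loci and the only *SLC13* locus.

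By pathway, 10 of 35 listed sarcomere genes had a locus here, and *MYL2* and *MYL10* were those that met the limits. *TNNI1*, a slow skeletal troponin I, had 100% in cPGCs and 59.7% in ESCs, and *TPM1* and *TNNC1* were uncovered in both. *MYOM3*, a myomesin of the M band, met the opposite limits, with 0% in cPGCs and 80.3% in ESCs. Of 6 photoreceptor loci, *GUCA1B* and *UNC119* met the limits, and *SAG* and *PDE6G* were uncovered. The lists of natriuretic peptides, small leucine-rich proteoglycans and glycoprotein hormones each had 1 locus, *NPPA*, *OPTC* and *TSHB*. Neither of the 2 loci from the list of pluripotency and germ line genes met the limits. *KLF2* had 64.5% in cPGCs and 0% in ESCs, and *PIWIL1*, a Piwi protein of the germ line, 0% and 87.3%. Each list except the last holds genes of the 36 and was chosen with earlier results known. A share of hits above the 1.85% of all loci is therefore no result about such a list. With so few loci per list, these counts are a description.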

How the data were processed

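Immunoprecipitated and input DNA of cPGCs and ESCs was sequenced, 1 library of each kind per cell type. The authors aligned reads to galGal5 with Bowtie2, kept uniquely mapped proper pairs, delineated islands against the input with SICER (windows of 300 bp), called broad MACS2 peaks, and retained autosomal islands by false-discovery rate or overlap with a peak. The deposited values are start and end positions of these domains (another kind of value than a count or a signal), and read depth is unknown, so no counting interval is given. Starts were printed counting from 1. Reads mapping to several places were not used by the authors, so repeats may be undercalled.

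Loci are the first 1999 of the study's gene annotation table, and other genes were not analysed here. Coverage was recomputed from the domains in Python 3.11.15 (pandas 2.3.3, numpy 2.4.6, scipy 1.17.1) and plotted in matplotlib 3.10.9. The interval routines were tested on simulated domains. RefSeq names (assembly GRCg7b) matched 33 of 36 genes. Strand was not used. The members and lists were chosen with earlier results of these data known. The rule names every member, its neighbours, being the nearest loci among those used, and the 3 loci just outside each limit. Results for 1 member and 1 neighbour are not reported here. Expression values and the coverage columns of the study's table were not used. No test was made. Alternatives joined domains 3000 bp or less apart, set minimum widths of 3000 and 5000 bp, moved both limits, trimmed 500 bp from each locus end, required 10% overlap, and took flanks of 5 and 20 kb.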

Additional observations from a re-analysis of the deposited data

How the results depend on the processing

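Across 11 alternative settings, 53 of 61 recomputed values stayed within 1.5 times the reported count, or within the 95% interval of the reported share (Wilson) or median (order statistics over genes), and 8 moved. These intervals treat the selected genes as independent, which they are not, and the settings reuse many of the same genes. Staying within them is therefore no evidence of robustness. A limit of 90% in cPGCs gave 23 genes, 95.7% of them wholly covered, and a limit of 50% gave 68 genes, 32.4% wholly covered, as the limits themselves fix. Joining domains 3000 bp or less apart gave 41 genes, with a median main domain of 25200 bp and 43.9% without ESC overlap. Keeping domains of at least 5000 bp gave 46 genes, with the nearest ESC domain at a median of 25287 bp. Under both settings the genes changed along with the domains, and the parts of each were not separated. Counting ESC overlap from 10% of the main domain raised the share without overlap to 77.8%. No paired analysis was possible because each cell type has 1 immunoprecipitated library. With no replicate and no depth, a gene without an ESC domain may be one where enrichment was not called, and the lists of the cell types may differ in sensitivity. Neither was tested.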
